A study of Mus musculus with 9 samples.

Results

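The 49 genes described here drive cell division in mouse cells: 25 act in mitosis, 13 in DNA replication, 8 are cyclins and kinases of the G1 phase and 3 are transcription factors that switch such genes on. They were picked by symbol, with earlier results of these data known. Their Ensembl identifiers were found among the 43629 genes with a count in each library. All 49 passed the filter on low counts, which left 16561 genes for testing. Their RNA was counted in 9 libraries of cultured embryonic heart cells, in 3 groups of 3.

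Ventricles came from CD-1 mouse embryos at embryonic day 13.5, with the tissue of each litter pooled, and cells that had not attached to plastic early were kept and grown for 48 h. All groups then received siRNA, a short double-stranded RNA that leads to cleavage of a matching transcript, at 0.012 pmol by lipofection. The control group got a commercial negative siRNA, the DNMT3a group a pool of 4 siRNAs against Dnmt3a, and the DNMT3b group a pool of 4 against Dnmt3b, the genes of the enzymes that set new DNA methylation. Cells were released 72 h later and sorted on magnetic columns for VCAM1, a surface protein of embryonic heart muscle cells, before poly(A) RNA was sequenced. The labels number the libraries 1 to 3 in each group and do not tie a number to a litter or culture, so p-values measure a spread that may be technical.

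A dividing cell licenses its DNA for copying in G1, copies it in S phase and separates the copies in mitosis. D cyclins with Cdk4 or Cdk6 release E2F transcription factors, which turn on replication genes such as the Mcm helicase subunits, and a later wave led by B-Myb (Mybl2) and Foxm1 turns on mitotic genes. Cardiomyocytes of the fetal ventricle still divide and largely stop after birth, and fibroblasts divide in culture, so RNA of these genes in a mixed culture comes from every cell type that is cycling.

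The libraries held 27852412 to 35896018 reads counted in genes. Dnmt3a fell with its own siRNA (log2 fold change -2.48 ± 0.11 SE, adjusted p = 3.42e-06), and Dnmt3b fell with its own (-1.34 ± 0.23, adjusted p = 0.00816; 0.0538 without library DNMT3b 3). All 14 cardiomyocyte markers were measured, yet their summed level was 2456 to 3263 CPM (counts scaled to a common library total) in controls, against 60774 to 78885 CPM for 10 fibroblast markers. The cardiomyocyte sum was 5583 to 7443 CPM with DNMT3a siRNA, where 11 markers rose, and 7169 to 8684 CPM with DNMT3b siRNA, where 12 rose. Fibroblast markers summed to 59756 to 65293 CPM with DNMT3a siRNA (4 of 10 fell) and 54958 to 61386 CPM with DNMT3b siRNA (3 fell). The 10 macrophage markers ran from 18.0 to 49.1 CPM in controls, 6.82 to 14.0 with DNMT3a siRNA (3 fell) and 14.5 to 30.7 with DNMT3b siRNA. Of 9 endothelial markers 1 rose with DNMT3b siRNA, with sums of 86.0 to 121 CPM in controls, 70.7 to 120.5 with DNMT3a siRNA and 146 to 154 with DNMT3b siRNA. The 8 epicardial markers summed to 1818 to 2134 CPM in controls, 1300 to 1713 with DNMT3a siRNA (1 higher, 3 lower) and 1122 to 1626 with DNMT3b siRNA (2 lower). None of 7 smooth muscle markers was called (2 with DNMT3a siRNA and 4 with DNMT3b siRNA at an unadjusted p under 0.05, 1 each by DESeq2), and 3 of 6 erythroid markers were at 0 everywhere. The part of these shifts in the results below was not tested.

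With DNMT3a siRNA, 5 of the 49 genes differed from control at an adjusted p under 0.05: Cenpf was higher, and Mcm7, Cdk6, E2f1 and Ccnd2 were lower. That is 10.2% of the genes, where 10.1% of all genes tested were called, 4.87% as higher and 5.22% as lower. Over all genes 48.3% of the calls were higher, and 61.1% were when libraries were scaled by their size alone, which left the 5 calls as they were. With DNMT3b siRNA only Ccnd2 was called, as lower, which is 2.04% of the genes beside 5.64% of all genes, 3.52% higher and 2.12% lower. The count of 5 was 2 without library DNMT3a 3 and 3 without control 3, DNMT3a 1, DNMT3b 2 or DNMT3b 3. The count of 1 was 0 without control 3, DNMT3b 2 or DNMT3b 3, and 2 without control 2, DNMT3a 2 or DNMT3b 1. The median log2 fold change over the 49 genes was 0.10 with DNMT3a siRNA and 0.04 with DNMT3b siRNA, beside 0.02 and 0.00 over all genes. Leaving out 1 library gave medians over the 49 from -0.01 (without DNMT3a 1) to 0.20 (without control 1) and from -0.05 (without control 3) to 0.13 (without control 1). In each comparison 44 of the 49 genes lay within 0.3 of no change on the log2 scale, with a median standard error of 0.13. In bulk RNA, fewer cells of a type and less RNA per cell cannot be told apart. Both comparisons use the same 3 control libraries, so their values are given side by side.

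**Figure D1:**
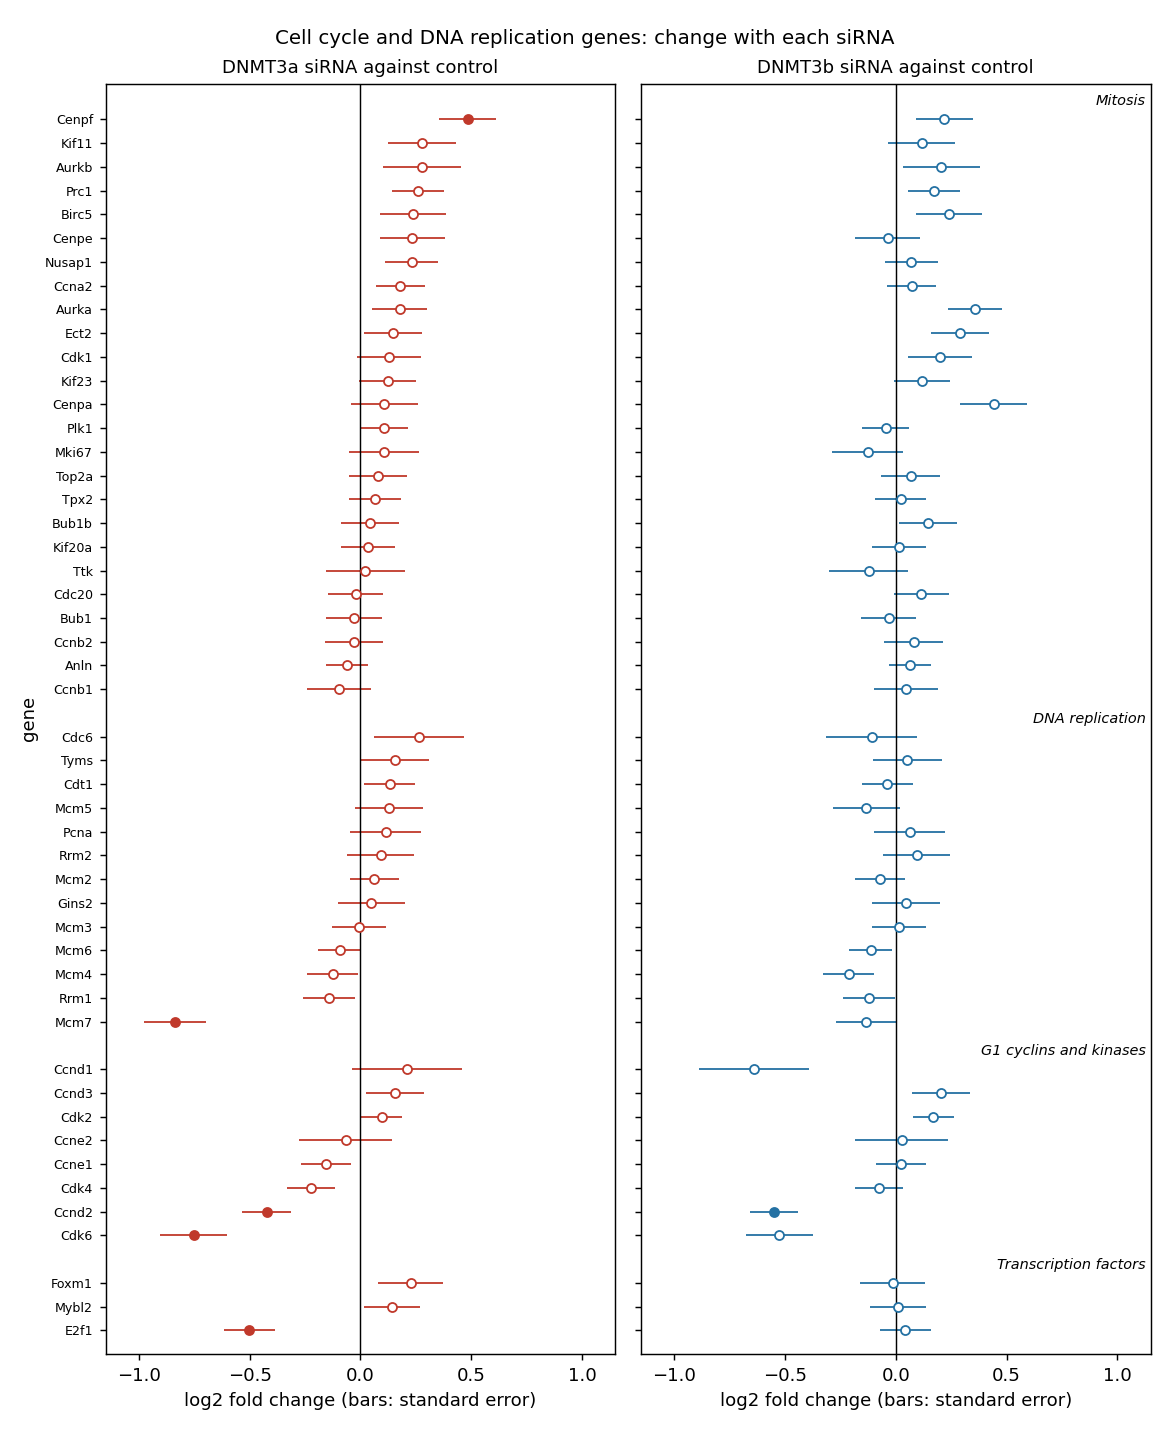
Log2 fold change of each of the 49 genes with DNMT3a siRNA (left) and DNMT3b siRNA (right) against control, by role, with bars of 1 standard error from the fit; filled points passed an adjusted p of 0.05. Most points lie near the line of no change, and the filled points are Cenpf, Mcm7, Ccnd2, Cdk6 and E2f1 on the left and Ccnd2 on the right.

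Groups whose 3 libraries all lay above or below the 3 controls were found for 5 genes with DNMT3a siRNA, the same 5 that were called, where 26.7% of all genes tested had such groups. With DNMT3b siRNA there were 5 as well, where 26.1% of all genes had them: Cdk2 lay above its controls, and Ccnd2, Cdk6, Ccnd1 and Mcm4 lay below. The share of the 49 genes with separate groups was thus below that of all genes in both comparisons.

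Among the 25 mitosis genes, 1 rose with DNMT3a siRNA, none fell, and the median log2 fold change was 0.11. With DNMT3b siRNA none was called by edgeR, DESeq2 or limma-voom, 2 had an unadjusted p under 0.05, and the median was 0.08. The median with DNMT3a siRNA was 0.26 without control 1, 0.03 without control 3, 0.04 without DNMT3a 1 and 0.19 without DNMT3a 3. That with DNMT3b siRNA was 0.23 without control 1, -0.0027 without control 3, 0.16 without DNMT3b 1 and 0.03 without DNMT3b 3. In each comparison 20 of the 25 had a fold change above 0 and 5 below, where 53.1% of all genes tested were above 0 with DNMT3a siRNA and 50.2% with DNMT3b siRNA. The count of 20 moved with single libraries. Of the controls that both comparisons share, leaving out control 1 gave 25 in both, and leaving out control 3 gave 15 and 11. With DNMT3a siRNA the count was 15 without DNMT3a 1 and 23 without DNMT3a 3. With DNMT3b siRNA it was 22 without DNMT3b 1 and 17 without DNMT3b 3. Values ran from -0.10 to 0.48 for DNMT3a siRNA and from -0.13 to 0.44 for DNMT3b siRNA.

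Cenpf encodes a large protein of the kinetochore and nuclear matrix that accumulates in G2 (chromosome 1, 189640606 to 189688086, GRCm38, minus strand). Its level was 80.7, 69.3 and 61.5 CPM in control libraries 1 to 3, 109, 87.6 and 98.8 CPM with DNMT3a siRNA, and 69.3, 88.1 and 89.0 CPM with DNMT3b siRNA. Every DNMT3a library lay above every control, while library DNMT3b 1 lay among the controls. The change with DNMT3a siRNA was 0.48 ± 0.13 on the log2 scale, 140% of the control level (adjusted p = 0.0394), and with DNMT3b siRNA it was 0.22 ± 0.13 (adjusted p = 0.361). The call with DNMT3a siRNA was lost without control 2 (adjusted p = 0.0734), control 3 (0.131), DNMT3a 1 (0.143), DNMT3a 3 (0.0942), DNMT3b 2 (0.0593) or DNMT3b 3 (0.0667), and in a fit of only the 2 groups compared (0.0706). Its log2 fold change ran from 0.39 to 0.59 over the 18 alternatives.

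The 3 mitosis genes with the highest control level per transcript length were Ccnb2, Mki67 and Plk1, at 28.2, 25.9 and 25.5 RPKM (CPM per kilobase of exon). Ccnb2 encodes a cyclin B that partners Cdk1 to enter mitosis, and had 46.3, 48.8 and 34.4 CPM in controls, 41.3, 45.8 and 39.7 with DNMT3a siRNA and 40.5, 46.5 and 49.9 with DNMT3b siRNA. Mki67 encodes Ki-67, the protein stained to count cycling cells, and had 319, 229 and 235 CPM in controls, 340, 253 and 250 with DNMT3a siRNA and 210, 261 and 246 with DNMT3b siRNA. The groups overlapped for both genes, and library 1 was the highest for Mki67 in the control and DNMT3a groups. Plk1 encodes a kinase that drives centrosome maturation and spindle assembly, and had 60.6, 56.1 and 51.7 CPM in controls, 64.1, 60.7 and 56.5 with DNMT3a siRNA and 46.0, 59.1 and 58.0 with DNMT3b siRNA. None of the 3 passed the test: with DNMT3a siRNA the log2 fold changes were -0.03 ± 0.13 for Ccnb2, 0.11 ± 0.16 for Mki67 and 0.11 ± 0.11 for Plk1 (adjusted p from 0.608 to 0.928), and with DNMT3b siRNA 0.08 ± 0.13, -0.13 ± 0.16 and -0.05 ± 0.11 (0.694 to 0.852).

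For 4 other mitosis genes, given below, the differences were larger than for most but did not pass. They were not the only such genes: Ect2 differed by 0.29 ± 0.13 with DNMT3b siRNA (adjusted p = 0.234). Aurkb differed by 0.28 ± 0.17 with DNMT3a siRNA (adjusted p = 0.372). Cenpa, the histone H3 variant that marks centromeres, had 43.0, 41.7 and 33.5 CPM in controls and 42.9, 58.9 and 58.9 CPM with DNMT3b siRNA. The last 2 of these lay above all controls and the first among them, and the log2 fold change of 0.44 ± 0.15 had an adjusted p of 0.118 (0.0439 without DNMT3b 1, 0.0482 with no filter on low counts). Aurka, a kinase of the spindle poles, differed by 0.36 ± 0.12 with DNMT3b siRNA (adjusted p = 0.118). Kif11, the motor that pushes spindle poles apart, and Prc1, which bundles microtubules of the central spindle, differed by 0.28 ± 0.15 and 0.26 ± 0.12 with DNMT3a siRNA (adjusted p = 0.293 and 0.198). Both were called without control 1 (adjusted p = 0.0372 and 0.0422), the control library in which 24 of the 25 mitosis genes were at their highest.

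Promoter sequences of the genes were compared by role, apart from their RNA levels. The RefSeq promoter table (GRCm38.p6) held 43 promoters of 39 of the 49 genes, each running from 250 bases before the transcript start to 50 after it. Motifs were searched on both strands: the CHR (cell cycle genes homology region, TTTGAA or TTCGAA), an element of promoters that peak in mitosis, the CCAAT box (CCAAT), bound by NF-Y, and the E2F site (TTTCCCGC, TTTCGCGC, TTTGCCGC or TTTGGCGC). Of 23 promoters of 21 mitosis genes, 82.6% held a CHR, beside 16.7% of 12 promoters of 11 replication genes and 19.2% of all 32851 promoters. The CCAAT box was in 87.0% of the mitosis promoters and also in 9 of the 12 replication promoters, beside 37.4% of all. A CHR within 50 bases of the start was in 78.3% of them and in 5.31% of all. Of the replication promoters, 50.0% held an E2F site, beside 4.35% of the mitosis promoters and 2.26% of all. A match is a description of letters and not evidence of binding. The promoters of Plk1 (chr7:122159185-122159484, plus strand) and Cenpf (chr1:189688037-189688336, minus strand) are shown for the mitosis pattern and those of Mcm5 (chr8:75109259-75109558, plus strand) and Mcm7 (chr5:138171834-138172133, minus strand) for the replication pattern, each 5′ to 3′ with all motif letters in capitals. The table holds a second Mcm7 promoter (chr5:138171217-138171516, minus strand), not printed here, with a CCAAT box and neither an E2F site nor a CHR.
Plk1: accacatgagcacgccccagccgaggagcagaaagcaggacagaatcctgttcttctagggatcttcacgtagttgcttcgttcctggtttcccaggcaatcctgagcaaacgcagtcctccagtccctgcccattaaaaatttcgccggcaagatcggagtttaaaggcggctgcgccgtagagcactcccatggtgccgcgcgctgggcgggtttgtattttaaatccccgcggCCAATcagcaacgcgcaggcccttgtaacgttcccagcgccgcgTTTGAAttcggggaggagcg
Cenpf: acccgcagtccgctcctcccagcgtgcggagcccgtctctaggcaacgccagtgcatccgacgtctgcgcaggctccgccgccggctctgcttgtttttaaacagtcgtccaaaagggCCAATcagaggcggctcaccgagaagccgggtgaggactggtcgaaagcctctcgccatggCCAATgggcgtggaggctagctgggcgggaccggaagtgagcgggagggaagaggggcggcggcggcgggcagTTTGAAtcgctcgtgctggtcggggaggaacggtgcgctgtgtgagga
Mcm5: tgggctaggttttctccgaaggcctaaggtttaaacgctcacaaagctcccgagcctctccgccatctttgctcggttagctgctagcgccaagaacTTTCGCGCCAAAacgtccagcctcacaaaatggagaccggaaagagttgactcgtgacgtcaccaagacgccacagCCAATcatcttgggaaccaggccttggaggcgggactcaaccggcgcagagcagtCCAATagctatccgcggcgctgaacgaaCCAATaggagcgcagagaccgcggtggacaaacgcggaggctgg
Mcm7: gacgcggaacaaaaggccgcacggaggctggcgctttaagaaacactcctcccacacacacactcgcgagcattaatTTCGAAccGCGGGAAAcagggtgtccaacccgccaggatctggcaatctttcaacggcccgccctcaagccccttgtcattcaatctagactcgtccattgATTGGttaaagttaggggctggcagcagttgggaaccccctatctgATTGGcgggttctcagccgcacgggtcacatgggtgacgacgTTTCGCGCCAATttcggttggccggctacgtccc
In Plk1 and Cenpf the capitals near the 3′ end are the CHR, TTTGAA, beside the transcript start, and those before it are CCAAT boxes. Cenpf was called as higher with DNMT3a siRNA, a call lost in 8 of the 18 alternatives, and Plk1 did not pass the test. Their changes were not compared with each other, and a relation of the motifs to the changes was not tested. In Mcm5 an E2F site on the plus strand overlaps another on the minus strand, and in Mcm7 the last run of capitals joins an E2F site to a CCAAT box. Mcm7 also holds a CHR, far upstream of this start. Mcm5 did not pass the test and Mcm7 fell. The windows listed for E2f1 (chr2:154569377-154569676) and Cdk6 (chr5:3343643-3343942) held none of the motifs searched. Both windows lie inside the annotated gene, which ends at 154569892 for E2f1 (minus strand) and starts at 3341485 for Cdk6 (plus strand). The same holds for both Mcm7 windows, where the gene ends at 138172422 (minus strand). It also holds for the Cdc6 window, where the gene starts at 98907801 (plus strand). Sequence before these outermost starts was not searched, so motifs there would be missed.

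**Figure D2:**
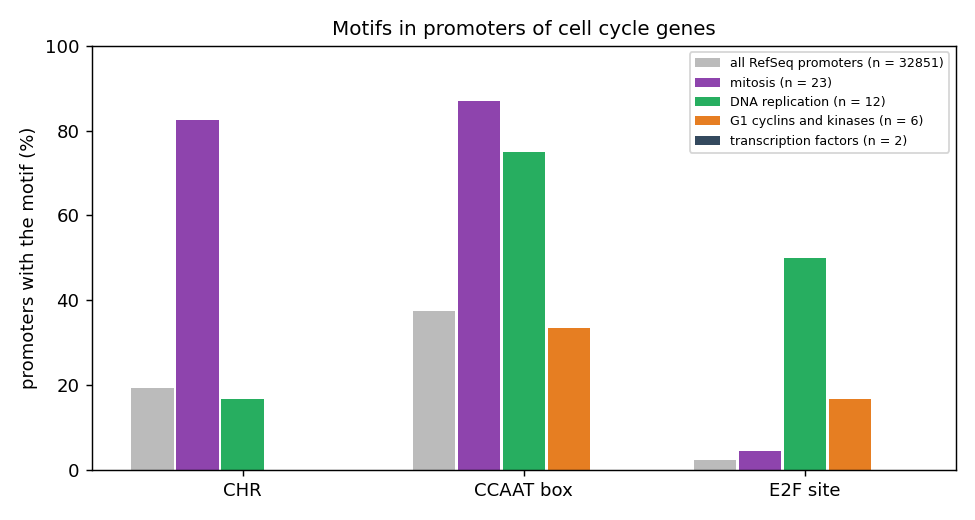
Percentage of RefSeq promoters with a CHR, a CCAAT box or an E2F site, for all 32851 promoters and for those of the genes by role (23, 12, 6 and 2 promoters); a missing bar is 0. The CHR bar is tallest for mitosis (82.6%) and the E2F bar for replication (50.0%).

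Of the 13 replication genes, Mcm7 fell with DNMT3a siRNA and no gene rose. With DNMT3b siRNA none was called by edgeR, DESeq2 or limma-voom, and none had an unadjusted p under 0.05. The median log2 fold change was 0.06 with DNMT3a siRNA and -0.07 with DNMT3b siRNA. Leaving out each library in turn moved the first from -0.01 (without DNMT3a 1) to 0.18 (without control 1), and the second from -0.15 (without control 3) to 0.06 (without control 1). Without Mcm7, the other 12 genes had a median of 0.08 with DNMT3a siRNA, from -0.14 (Rrm1) to 0.26 (Cdc6, a loader of the helicase).

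Mcm7 encodes a subunit of the Mcm2 to Mcm7 ring that unwinds DNA at the replication fork (chromosome 5, 138164583 to 138172422, minus strand). Its level was 39.3, 32.7 and 29.4 CPM in controls, 20.2, 20.7 and 15.9 CPM with DNMT3a siRNA and 27.3, 33.7 and 31.6 CPM with DNMT3b siRNA. All DNMT3a libraries lay below all others, and the DNMT3b libraries overlapped the controls. Mcm7 fell with DNMT3a siRNA by 0.84 on the log2 scale (SE 0.14), to 56.0% of the control level (adjusted p = 0.00417). The call held in all 18 alternatives, with adjusted p up to 0.0171 and log2 fold changes from -0.94 to -0.71. With DNMT3b siRNA the difference was -0.13 ± 0.14 (adjusted p = 0.622).

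The 5 other subunits of the ring, Mcm2 to Mcm6, were not called with either siRNA, and none had an unadjusted p under 0.05. Their log2 fold changes ran from -0.12 (Mcm4) to 0.13 (Mcm5) with DNMT3a siRNA and from -0.21 (Mcm4) to 0.02 (Mcm3) with DNMT3b siRNA. The distance of Mcm7 from the mean log2 level of the other 5 was -1.06, -0.99 and -1.13 in controls, -1.94, -1.82 and -1.92 with DNMT3a siRNA and -1.28, -0.98 and -1.05 with DNMT3b siRNA. Within each DNMT3a library Mcm7 thus stood further below the other subunits than in any control or DNMT3b library. The mean of the other 5 did not separate the groups: it was 6.36, 6.03 and 6.01 log2 CPM in controls, 6.28, 6.20 and 5.92 with DNMT3a siRNA and 6.05, 6.05 and 6.03 with DNMT3b siRNA.

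**Figure D3:**
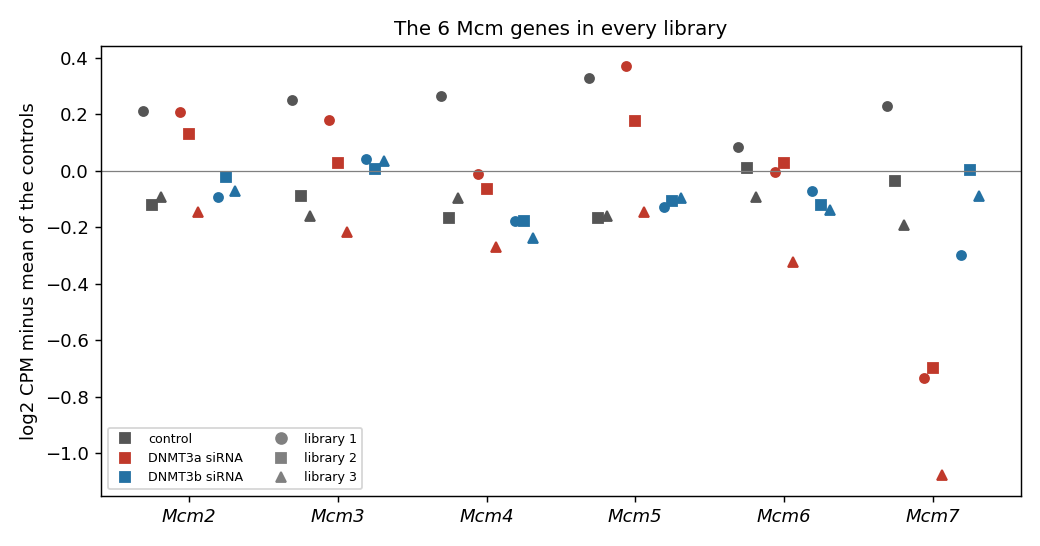
Log2 CPM of the 6 Mcm genes in each of the 9 libraries, each gene set to 0 at its control mean; colours are groups and marker shapes are library numbers. The 3 DNMT3a libraries of Mcm7 sit below all other points, while for Mcm2 to Mcm6 the DNMT3a libraries lie among or close to the controls.

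Counts of Mcm7 may miss reads in bases shared with neighbours. Its exons share 321 bases with Ap4m1 and 64 bases with Cops6 on the opposite strand, and both neighbours were counted. Reads that could not be given to a single gene stood in a summary line for ambiguous reads, 1.92% to 2.45% of each total. The strand setting of the counting is not given in the sources used here. Cops6 differed by -0.06 ± 0.09 with DNMT3a siRNA (adjusted p = 0.763) and Ap4m1 by 0.29 ± 0.13 (adjusted p = 0.197). The microRNA genes Mir25 and Mir93 share 84 and 88 exonic bases with Mcm7 on the same strand. They had 0 counts in every library, which does not measure their level, since reads in such shared bases may have been counted as ambiguous.

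Mcm6, Mcm4 and Rrm1 had the highest control levels per length among the replication genes, from 21.9 RPKM for Mcm6 to 19.4 RPKM for Rrm1. Mcm6 had 108, 103 and 95.8 CPM in controls, 102, 104 and 81.7 with DNMT3a siRNA and 97.2, 94.0 and 92.9 with DNMT3b siRNA. Mcm4 had 89.7, 66.4 and 69.7 CPM in controls, 74.0, 71.4 and 61.8 with DNMT3a siRNA and 66.0, 65.9 and 63.1 with DNMT3b siRNA. All DNMT3b libraries of Mcm4 lay below its controls, at a log2 difference of -0.21 ± 0.12 that did not pass (adjusted p = 0.320), and the groups of Mcm6 overlapped with DNMT3a siRNA. Rrm1, the large subunit of the reductase that makes deoxyribonucleotides, had 236, 222 and 183 CPM in controls, 191, 224 and 167 with DNMT3a siRNA and 193, 202 and 194 with DNMT3b siRNA. Its log2 differences were -0.14 ± 0.12 and -0.12 ± 0.12 (adjusted p = 0.520 and 0.601). Pcna, the sliding clamp of the polymerases, Rrm2, Tyms, Cdt1 and Gins2 had log2 fold changes from 0.05 to 0.15 with DNMT3a siRNA and from -0.04 to 0.09 with DNMT3b siRNA, none of which passed.

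Of the 8 G1 cyclins and kinases, Cdk6 and Ccnd2 fell with DNMT3a siRNA and Ccnd2 fell with DNMT3b siRNA, while none rose. Cdk6 encodes a kinase that D cyclins activate (chromosome 5, 3341485 to 3531008, plus strand). It had 117, 79.0 and 115 CPM in controls, 70.8, 52.0 and 61.6 CPM with DNMT3a siRNA and 72.6, 72.0 and 71.3 CPM with DNMT3b siRNA. Both siRNA groups lay below every control, and the DNMT3a libraries lay below the DNMT3b libraries too. Cdk6 fell with DNMT3a siRNA by 0.75 (SE 0.15), to 59.4% of control (adjusted p = 0.0113), and the call held in all 18 alternatives, with adjusted p up to 0.0463. With DNMT3b siRNA the difference was -0.53 ± 0.15, 69.5% of control (adjusted p = 0.0701), which passed without control 2 (0.00425) or DNMT3a 2 (0.0447), with DESeq2 (0.0149) and with no filter on low counts (0.0278).

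Ccnd2 encodes cyclin D2 (chromosome 6, 127125162 to 127152193, minus strand), the most abundant of the 49 genes per length, at 177 RPKM in controls. It had 1596, 1521 and 1887 CPM in controls, 1253, 1142 and 1337 CPM with DNMT3a siRNA and 1234, 1101 and 1084 CPM with DNMT3b siRNA. All 6 siRNA libraries lay below all 3 controls. Ccnd2 fell by 0.42 (SE 0.11) with DNMT3a siRNA, to 74.6% of control (adjusted p = 0.0346), and by 0.55 (SE 0.11) with DNMT3b siRNA, to 68.3% (adjusted p = 0.0151). The first call was lost without any of control 1 (adjusted p = 0.0579), control 3 (0.120), DNMT3a 1 (0.0969), DNMT3a 2 (0.0675), DNMT3a 3 (0.0523), DNMT3b 2 (0.0613) and DNMT3b 3 (0.0514), and in a fit of only the 2 groups compared (0.0805). The second was lost without control 3 (0.0603), DNMT3b 2 (0.0825) or DNMT3b 3 (0.0894).

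The other D cyclins were not called with either siRNA. Ccnd1 had 121, 83.0 and 125 CPM in controls, 173, 84.6 and 122 with DNMT3a siRNA and 76.3, 65.9 and 68.6 with DNMT3b siRNA. The DNMT3b libraries were below all others and alike, and the other groups were spread widely. The difference of -0.64 ± 0.25 with DNMT3b siRNA did not pass (adjusted p = 0.179), but passed with DESeq2 (0.0431) and in a fit of only the 2 groups compared (0.0476). Its exons share 1100 bases with LTO1 on the opposite strand. Ccnd3 had 190, 243 and 237 CPM in controls, 257, 220 and 269 with DNMT3a siRNA and 214, 284 and 273 with DNMT3b siRNA, with overlapping groups and log2 differences of 0.16 ± 0.13 and 0.20 ± 0.13 (adjusted p = 0.521 and 0.406). Per length, Ccnd2 made up 78.2%, 78.1% and 78.9% of the RNA of the 3 D cyclins in controls, 66.9%, 73.8% and 71.5% with DNMT3a siRNA and 76.4%, 71.6% and 71.6% with DNMT3b siRNA, so its share was lower in each siRNA library than in each control. The sum of the other 2 shares rises as this share falls, since the 3 add to the whole.

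Cdk4, the other partner of D cyclins, was second in control level per length at 78.7 RPKM. It had 281, 257 and 229 CPM in controls, 214, 249 and 194 with DNMT3a siRNA and 259, 239 and 230 with DNMT3b siRNA. The DNMT3a libraries were lower except for 1 that lay among the controls, and the log2 difference of -0.22 ± 0.11 did not pass (adjusted p = 0.228). Cdk2, which pairs with cyclin E at the start of S phase, had 41.0, 40.4 and 40.6 CPM in controls and 43.0, 46.9 and 47.4 with DNMT3b siRNA, a difference of 0.17 ± 0.09 (adjusted p = 0.320). Ccne1 and Ccne2, the E cyclins, differed by -0.15 ± 0.11 and -0.07 ± 0.21 with DNMT3a siRNA and by 0.02 ± 0.11 and 0.03 ± 0.21 with DNMT3b siRNA.

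**Figure D4:**
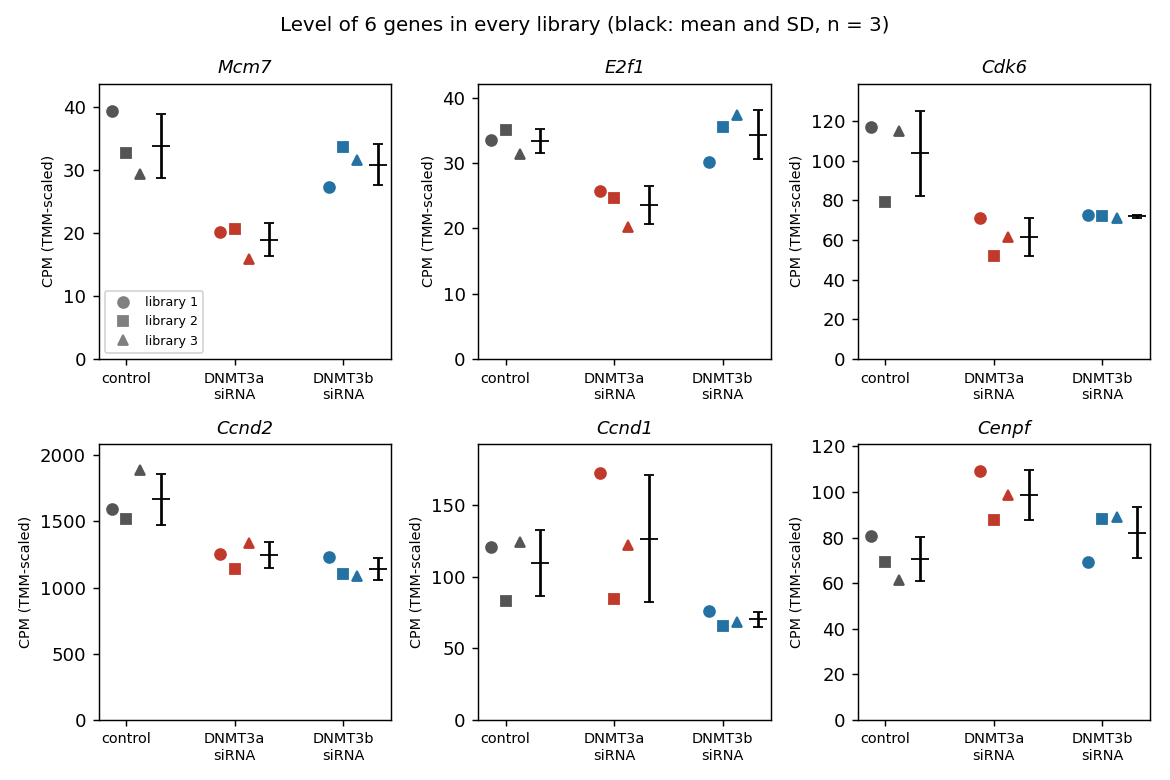
Level in CPM of Mcm7, E2f1, Cdk6, Ccnd2, Ccnd1 and Cenpf in every library, with axes from 0; shapes are library numbers and black marks are the mean and SD of 3 libraries. Mcm7, E2f1, Cdk6 and Ccnd2 show the DNMT3a libraries below all controls, Cenpf shows them above, and Ccnd1 is lowest in the DNMT3b libraries.

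Of the 3 transcription factors, E2f1 fell with DNMT3a siRNA and none changed with DNMT3b siRNA (none at an unadjusted p under 0.05, and none by DESeq2 or limma-voom). E2f1 encodes an activator of replication genes (chromosome 2, 154559407 to 154569892, minus strand). It had 33.6, 35.1 and 31.4 CPM in controls, 25.8, 24.6 and 20.2 CPM with DNMT3a siRNA and 30.1, 35.5 and 37.4 CPM with DNMT3b siRNA. The DNMT3a libraries lay below all others. The fall was 0.50 (SE 0.12), to 70.6% of control (adjusted p = 0.0207), and was no longer called without control 1 (0.0503) or DNMT3a 3 (0.0675). Without all libraries numbered 2 it was not called either (0.0855).

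Foxm1, the factor behind late mitotic expression, had 84.2, 62.6 and 67.3 CPM in controls, 94.9, 80.2 and 75.3 with DNMT3a siRNA and 57.3, 76.2 and 78.5 with DNMT3b siRNA. Mybl2 had 14.7, 13.5 and 12.6 CPM in controls, 15.3, 16.4 and 13.2 with DNMT3a siRNA and 11.9, 15.1 and 14.0 with DNMT3b siRNA. Groups overlapped for both genes. With DNMT3a siRNA their log2 differences were 0.23 ± 0.15 and 0.14 ± 0.13 (adjusted p = 0.389 and 0.546), and with DNMT3b siRNA -0.01 ± 0.15 and 0.01 ± 0.13 (0.970 and 0.977).

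Mitosis genes were then set against replication genes by the mean log2 CPM of each role in each library, as a description with no test. For the 25 mitosis genes it was 5.96, 5.69 and 5.53 in controls, 5.99, 5.86 and 5.71 with DNMT3a siRNA and 5.67, 5.92 and 5.93 with DNMT3b siRNA. For the 13 replication genes it was 5.57, 5.29 and 5.16 in controls, 5.45, 5.44 and 5.08 with DNMT3a siRNA and 5.28, 5.32 and 5.31 with DNMT3b siRNA. The groups overlapped in both roles, and the controls differed among themselves more than the group means did. DNMT3a and control libraries of the same number deviated together across genes, and between them the mitosis mean was higher with DNMT3a siRNA in all 3 pairs, by 0.03, 0.17 and 0.18 for numbers 1 to 3. The replication mean differed by -0.12, 0.15 and -0.08 in the same pairs. The difference of the roles within a library, which removes what they share, was 0.39, 0.40 and 0.37 in controls, 0.54, 0.42 and 0.63 with DNMT3a siRNA and 0.40, 0.60 and 0.62 with DNMT3b siRNA. The DNMT3a libraries lay above the controls in this difference, and 1 DNMT3b library lay among them. Without Mcm7 it was 0.36, 0.38 and 0.34 in controls, 0.45, 0.33 and 0.54 with DNMT3a siRNA and 0.36, 0.58 and 0.59 with DNMT3b siRNA. Without that gene, library DNMT3a 2 lay below all controls, so the separation of the DNMT3a libraries rested on Mcm7.

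**Figure D5:**
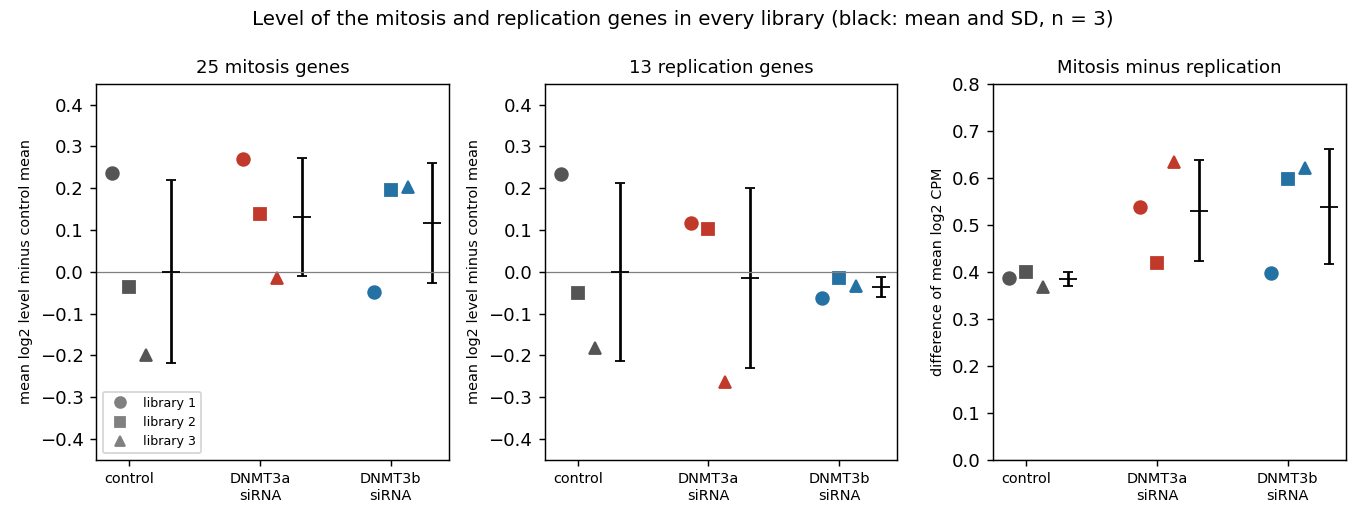
Mean log2 level of the 25 mitosis genes and of the 13 replication genes in every library, relative to the control mean, and the difference of the 2 means in log2 CPM; black marks are the mean and SD of 3 libraries. Groups overlap in both roles, and the difference is 0.37 to 0.40 in controls, 0.42 to 0.63 with DNMT3a siRNA and 0.40 to 0.62 with DNMT3b siRNA.

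Many of the 49 genes were at their highest or lowest in the same library of a group. Library control 1 had the highest level of its group for 44 of the 49, where it was highest for 31.6% of all genes tested. Library DNMT3a 1 was highest for 32 (29.9% of all genes) and DNMT3a 3 lowest for 42 (32.8%). Library DNMT3b 1 was lowest for 38 (40.4%), with all 25 mitosis genes and 7 of the 13 replication genes among them. No DNMT3b library was highest for most of the 49: the counts were 10, 21 and 18 for libraries 1 to 3.

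The siRNA groups were also compared with each other, which uses the same libraries as the comparisons above. Mcm7 and E2f1 were lower with DNMT3a siRNA than with DNMT3b siRNA and no gene was higher, 4.08% of the 49 genes beside 9.55% of all genes tested (4.47% higher, 5.08% lower). The count of 2 was 0 without DNMT3b 2 or DNMT3b 3, 1 without DNMT3a 3 and 3 without DNMT3a 2. Mcm7 differed by -0.70 ± 0.14 (adjusted p = 0.0119), lost without DNMT3b 2 (0.0614) or DNMT3b 3 (0.0511). E2f1 differed by -0.54 ± 0.12 (adjusted p = 0.0163), lost without DNMT3a 3 (0.0585), DNMT3b 2 (0.0747) or DNMT3b 3 (0.0777). Ccnd1 differed by 0.85 ± 0.25 (adjusted p = 0.0711), with all DNMT3a libraries above all DNMT3b libraries, and passed without DNMT3a 2 (0.0109) and with DESeq2 (0.00325). Neither Cenpf (0.26 ± 0.13, adjusted p = 0.231) nor Ccnd2 (0.13 ± 0.11, 0.510) nor Cdk6 (-0.23 ± 0.15, 0.379) was shown to differ between the siRNAs.

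Other genes of the same processes gave few calls. Of 44 further replication genes, Pold3, a subunit of DNA polymerase delta, rose with DNMT3a siRNA by 0.48 ± 0.11 (adjusted p = 0.0240; lost without control 3 at 0.0860, DNMT3a 1 at 0.0943 or DNMT3a 2 at 0.0739), and none was called with DNMT3b siRNA by any of the 3 tools or at an unadjusted p under 0.05. Of 48 further mitosis genes none was called with either siRNA by any of the 3 tools, with 6 and 3 at an unadjusted p under 0.05. Their median log2 fold changes were 0.14 and 0.07, close to those of the 25 mitosis genes. Of 29 further regulators, E2f6, a repressive member of the E2F family, rose with DNMT3a siRNA by 0.40 ± 0.09 (adjusted p = 0.0156; lost without control 3 at 0.0634 or DNMT3a 1 at 0.0587). In that comparison 9 of the 29 had an unadjusted p under 0.05, and DESeq2 also called Fzr1 as higher. With DNMT3b siRNA no regulator was called by edgeR, 4 had an unadjusted p under 0.05, and DESeq2 called 1, E2f5.

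Among 12 inhibitors of the cycle and p53 pathway genes, Cdkn2b and Cdkn2a fell with DNMT3a siRNA. Cdkn2b encodes p15, an inhibitor of Cdk4 and Cdk6, and had 76.7, 107 and 79.6 CPM in controls, 36.7, 57.3 and 38.4 with DNMT3a siRNA and 79.4, 78.7 and 80.4 with DNMT3b siRNA. The DNMT3a libraries lay below all others, and the fall of 0.99 (SE 0.18, adjusted p = 0.00733) held in all 18 alternatives, with adjusted p up to 0.0330. Cdkn2a, whose transcripts encode p16 and Arf, had 29.9, 52.2 and 35.5 CPM in controls and 5.42, 16.4 and 13.7 with DNMT3a siRNA, a fall of 1.73 (SE 0.38, adjusted p = 0.0290). That call was lost without control 1 (0.0511), control 2 (0.0617), control 3 (0.0722), DNMT3a 3 (0.0770), DNMT3b 2 (0.0548) or DNMT3b 3 (0.0514), and with no filter on low counts (0.0896). Cdkn1a, which encodes the inhibitor p21, had log2 differences of 0.09 ± 0.13 with DNMT3a siRNA and 0.08 ± 0.13 with DNMT3b siRNA (adjusted p = 0.733 and 0.758). Btg2, an antiproliferative p53 target, rose with DNMT3b siRNA by 0.61 ± 0.11 (adjusted p = 0.0109), a call kept in all 18 alternatives with adjusted p up to 0.0469. Of the 12 genes, 5 had an unadjusted p under 0.05 with DNMT3a siRNA and 6 with DNMT3b siRNA. DESeq2 also called Cdkn1c as higher with DNMT3b siRNA.

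Between the siRNAs, E2f5 was higher with DNMT3a siRNA, by 0.59 ± 0.11 (adjusted p = 0.00756, up to 0.0420 over the 18 alternatives). The ubiquitin ligase subunit Skp2 was lower, by 0.50 (SE 0.10, adjusted p = 0.0119; lost without DNMT3a 1 at 0.0623 or DNMT3b 2 at 0.0628). Cdkn2b was lower as well (-0.85 ± 0.18, adjusted p = 0.0167), and this was lost without DNMT3a 1 (0.0652), DNMT3a 3 (0.0663), DNMT3b 2 (0.0627) or DNMT3b 3 (0.0634). The other calls between the siRNAs in these lists were Pold3, Zwint, Cenpn, Kif14, Pkmyt1 and Rb1 as higher and Tfdp1 as lower, with adjusted p from 0.0234 to 0.0479. Each of these 7 calls was lost without DNMT3a 1 (adjusted p from 0.103 to 0.170), DNMT3b 1 (0.0585 to 0.127) or DNMT3b 3 (0.0724 to 0.138).

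A 7-base word in 3′ untranslated regions, GCCAATA, is given because it stood in the transcripts of 2 of the 4 genes that fell. The word was picked in an earlier analysis of these data from genes that fell with DNMT3a siRNA, so its share among them is no independent evidence and was not tested. It was in the 3′ untranslated region of 6.23% of 13746 tested genes with such a region, of 25.1% of the 822 that were lower with DNMT3a siRNA and of 11.7% of the 342 that were lower with DNMT3b siRNA. These shares were not matched for the length of the region. Among the 49 genes 4 held the word: Mcm7 and Cdk6, which fell, and Mcm6 and Tyms, which did not pass. E2f1 and Ccnd2 fell and did not hold it. The sites are shown with 10 bases on each side, 5′ to 3′ on the transcript strand, from GRCm38 and the GENCODE annotation, with the word in capitals: Mcm7 at chr5:138164606-138164632, Cdk6 at chr5:3527132-3527158, Mcm6 at chr1:128332519-128332545 and Tyms at chr5:30058998-30059024.
Mcm7: tttttattctGCCAATAaagtgttttg
Cdk6: agccccctgaGCCAATAgtgacagtac
Mcm6: cgtaaaaaggGCCAATAggcagtgatt
Tyms: atagaatagtGCCAATAatagcaagtt
The word ended 33 bases before the transcript end in Mcm7, 3860 in Cdk6, 936 in Mcm6 and 806 in Tyms. In Mcm7 alone its last letters run on into AATAAA. The Mcm7 region is only 136 bases long, and 1.45% of regions of similar length (80% to 125% of it) held the word. The Cdk6 region is 10217 bases long, and 23.2% of regions of similar length held it. For Mcm6 (1888 bases) and Tyms (3427 bases) the shares were 7.25% and 11.2%. Such shares do not gauge how likely a hit was in Mcm7 or Cdk6, since the word was picked from genes that fell. Mcm6 and Tyms had log2 differences of -0.09 ± 0.10 and 0.15 ± 0.16 with DNMT3a siRNA (adjusted p = 0.613 and 0.604).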

How the data were processed

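RNA sequencing libraries of cultured and sorted embryonic heart cells, 3 in each of 3 siRNA groups, were analysed. The authors deposited raw read counts per gene and library, whole numbers with no normalisation. The files also hold 5 summary lines, 49.2% to 56.2% of each total, which were not used. The submitters' processing notes name FastQC, TopHat2, HTSeq and the mm10/GRCm38 build. The annotation release is not given in the sources used here, nor is the strand setting. Reads that matched several places stood in the summary lines, so genes with near-identical copies are undercounted. Of 43629 gene identifiers, 42462 had a symbol in GENCODE mouse release 21 (GRCm38), which also gave coordinates, exon lengths and 3′ untranslated regions.

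All 9 libraries entered 1 fit in edgeR 4.0.16 (R 4.3.3; filterByExpr with a minimum count of 10 and a minimum total of 15, TMM scaling, robust quasi-likelihood F test, two-sided, 6 residual degrees of freedom, biological coefficient of variation 0.154). Every adjusted p in the text is Benjamini-Hochberg adjusted over 16561 genes from this test unless another tool is named, and a call is an adjusted p under 0.05. A standard error is the size of the log2 fold change divided by the square root of F. Levels are TMM-scaled CPM, and RPKM divides them by exon length. Mean log2 levels used a prior count of 2. The test was also run on simulated data with known 2-fold changes. Simulated libraries were drawn independently of each other, so that run does not cover smaller changes or deviations that libraries share. Alternatives were DESeq2 size factors or library size in place of TMM, no filter or 1 CPM in 3 libraries as the filter, DESeq2 1.42.0, limma-voom (limma 3.58.1), a fit of the 2 groups alone, the replicate number as a block, and leaving out each library or all numbered 2. Where 1 library was left out, its group kept 2 and the fit pooled the spread over all groups.

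Genes were named by rule: the called ones, Mcm7 and, per role, the 3 with the highest control level per length in full, and up to 4 called genes per comparison of each other list. Full values for Ccnd1, Cenpa and Cdk2, and the mention of Aurka, Kif11, Prc1, Ect2, Aurkb, Cdkn1a, Cdkn1c and Fzr1, were chosen after values were seen. The 49 genes and the lists were chosen with earlier results of these data known. Libraries of DNMT3a siRNA and control with the same number deviated together from their group means (r = 0.43, 0.51 and 0.46 for numbers 1, 2 and 3, across genes), and adding the number as a block to that comparison left the calls of the 49 genes the same. Replicates of a group differed by more than sampling noise (chi-square 6.42 to 59.7 per degree of freedom), so each library counted as 1 sample.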

Additional observations from a re-analysis of the deposited data

How the results depend on the processing

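Across the 49 genes, the 3 comparisons and 18 alternatives gave 2646 values, of which 2599 stayed on the same side of the threshold, 29 lost a call, 18 gained a call and none reversed. With DNMT3a siRNA, 5 genes were called in the fit reported. The number was 3 in a fit of only the 2 groups compared, 2 without all libraries numbered 2, and 2 to 5 when each library was left out in turn. With DNMT3b siRNA, where 1 gene was called, the number was 3 with no filter on low counts, 3 with DESeq2, 2 in a fit of only the 2 groups compared and 3 without all libraries numbered 2, and 0 to 2 when each library was left out. Same-numbered libraries of DNMT3b siRNA and control were not shown to be paired (r = 0.21, 0.10 and 0.03 across genes), nor were those of the 2 siRNAs (0.16, 0.08 and 0.04), and with the replicate block 3 genes were called in each of these comparisons. Between the siRNAs, where 2 genes were called, 0 to 3 were called when each library was left out. Leaving out a library or fitting 2 groups uses fewer samples for the spread. With the block the calls over all genes went from 1671 to 2370 for DNMT3a siRNA and from 934 to 1801 for DNMT3b siRNA, and DESeq2 made 1715 calls for DNMT3b siRNA. For DNMT3a siRNA the fit of the 2 groups made 946 calls over all genes, and leaving out control 3, DNMT3a 1 or DNMT3a 3 gave 868 to 1038. Leaving out 1 library gave 287 to 1781 calls over all genes for DNMT3b siRNA and 524 to 1962 between the siRNAs, where 1582 were reported and 2513 were made with the block. Scaling by library size alone moved the share of higher genes among all calls with DNMT3a siRNA from 48.3% to 61.1%, and left the 5 called genes and their directions the same. The median log2 fold changes of the mitosis and replication genes moved in every alternative by less than the SD between libraries of the role's mean log2 level, pooled over both groups compared (0.18 and 0.21 for DNMT3a siRNA, 0.19 and 0.15 for DNMT3b siRNA, 0.14 and 0.15 between the siRNAs). Leaving out each library in turn gave 0.03 to 0.26 and -0.01 to 0.18 with DNMT3a siRNA, and -0.0027 to 0.23 and -0.15 to 0.06 with DNMT3b siRNA. The sign was thus not settled for the replication genes or for the mitosis genes with DNMT3b siRNA. For the mitosis genes with DNMT3a siRNA it stayed positive, but the median was not tested and the SD between libraries was 0.18.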
